A study of Mus musculus with 6 samples.

Results

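Oxidative phosphorylation, the respiratory chain and the ATP synthase of mitochondria, was measured through messenger RNA for its nuclear-encoded subunits. Every probe set annotated to a listed subunit was taken: the Nduf genes of complex I, the Sdh genes of complex II, the Uqcr genes and Cyc1 of complex III, Cycs, the Cox genes of complex IV and the Atp5 genes of ATP synthase. Of 53 listed genes, 51 had at least 1 probe set carrying that symbol alone, out of 18194 genes named in this way on the array. They stood for 112 of 45101 probe sets, of which 101 passed a filter on low values, and each of the 51 genes kept at least 1. Complex I was represented by 25 genes, complex II by 4, complex III by 7, cytochrome c by 1, complex IV by 9 and ATP synthase by 5. For Ndufs6 the annotation pairs the probe set with a further gene, and Cox7b was not analysed here.

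RNA came from the spinal cord of untreated C57Bl/6 mice, all male and 4 months old. Wild type animals (n = 3) were compared with Nogo-A knockout animals (n = 3), with 1 Affymetrix mouse expression array per animal. Nogo-A is the longest protein of the gene Rtn4, a membrane protein made by oligodendrocytes and by part of the neurons, and it limits axon growth. The study asked how its absence alters gene expression in the uninjured cord, and neither the labels nor the design text describe the knockout allele.

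Complexes I and II pass electrons from NADH and from succinate to ubiquinone, complex III passes them on to cytochrome c, and complex IV passes them to oxygen. Complexes I, III and IV pump protons across the inner mitochondrial membrane, and ATP synthase lets the protons return while it makes ATP. Neurons depend on this process for ion pumping and axonal transport, and most of the subunits are encoded in the nucleus, while a few core subunits are encoded in mitochondrial DNA. The transcription factors NRF1, the ETS factor GABP (also called NRF2) and YY1 are known regulators of nuclear genes for respiratory subunits.

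Promoter sequences are shown because matches to these factors are a feature that was not used to choose the genes. RefSeq promoter windows on build GRCm38.p6, from 250 bases before to 50 bases after the annotated start, were found for 42 of the 53 listed genes. Both strands were searched for GCGCANGCG (NRF1), CCGGAAG (ETS), AAGATGGCG (YY1) and, as a general promoter motif, GGGCGG (SP1). The NRF1 letters were found in 12 of 42 genes, or 28.6%, against 7.03% of 27025 genes with a window and 9.63% of the 17491 that code for protein. The ETS letters were found in 9 genes, or 21.4%, against 9.93% of all genes and 12.9% of protein-coding genes. The YY1 letters were found in 5 genes, or 11.9%, against 1.64% and 2.14%. All 5 belonged to complex I, which held 23 of the 42 genes, and 1 of them, Ndufs6, had no probe set under its symbol alone. The SP1 letters were found in 38.1% of the genes, against 38.2% of all genes and 49.2% of protein-coding genes. At least 1 of the NRF1, ETS and YY1 motifs was found in 23 of 42 genes (54.8%), against 16.5% of all genes and 21.8% of protein-coding genes. A match is a run of letters, and binding was not measured.

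The 200 bases before the start are shown for 4 genes that carry such matches and are described below, with NRF1 and ETS matches in capitals and the remaining bases in lower case. Sdha lies on the minus strand at chr13:74350241-74350440 and holds 3 NRF1 matches. Sdhd lies on the minus strand at chr9:50603850-50604049 and holds 1 NRF1 and 1 ETS match. Cycs lies on the minus strand at chr6:50566570-50566769 and holds 1 NRF1 match. Cox6a1 lies on the minus strand at chr5:115348959-115349158 and holds 3 NRF1 matches, of which the leftmost pair overlap by all but 1 base, and 1 ETS match.
Sdha: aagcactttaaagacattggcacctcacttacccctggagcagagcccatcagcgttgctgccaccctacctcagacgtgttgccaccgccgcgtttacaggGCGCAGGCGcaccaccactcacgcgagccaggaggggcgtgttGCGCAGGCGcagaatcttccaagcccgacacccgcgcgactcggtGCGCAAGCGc
Sdhd: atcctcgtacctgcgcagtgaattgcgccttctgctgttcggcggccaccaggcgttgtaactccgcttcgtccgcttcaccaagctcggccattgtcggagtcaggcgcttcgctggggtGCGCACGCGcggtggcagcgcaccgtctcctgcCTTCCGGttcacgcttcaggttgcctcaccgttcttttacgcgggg
Cycs: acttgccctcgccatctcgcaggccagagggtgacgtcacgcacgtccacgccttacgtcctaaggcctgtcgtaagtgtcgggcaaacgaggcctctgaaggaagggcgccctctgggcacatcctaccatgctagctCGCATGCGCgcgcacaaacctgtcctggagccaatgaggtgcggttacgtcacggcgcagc
Cox6a1: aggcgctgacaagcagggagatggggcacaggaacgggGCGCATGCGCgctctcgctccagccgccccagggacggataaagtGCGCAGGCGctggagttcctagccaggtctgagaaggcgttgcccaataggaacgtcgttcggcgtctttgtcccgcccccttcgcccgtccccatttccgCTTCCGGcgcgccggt

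The signal of a probe set is its deposited intensity, a linear value that had been scaled to a common mean on every array. Of the Rtn4 probe sets, 1 had signals of 3560, 2790 and 2802 in wild type and 78.2, 9.2 and 5.1 in the knockout, which matched the labels. It was the only one of 23525 tested probe sets past the threshold (limma adjusted p = 0.000109). The other 4 Rtn4 probe sets were higher on every knockout array than on any wild type array. The arrays differed in their dim signals: array medians ran from 148.2 to 195.6 in wild type, highest on replicate 3, and from 144.1 to 149.3 in the knockout. For the test each signal was divided by its array's median, and over all tested probe sets the median log2 difference, knockout minus wild type, then came to 0.23. Changes are therefore given as log2 values relative to this shift, while p-values and standard errors (SE) belong to the fit before it was subtracted. Replicates are separate animals, and the smallest two-sided p that exact permutation of 3 against 3 allows is 0.1.

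Messenger RNA for the subunits was abundant, and nearly all of it lay slightly on the knockout side of the shift. Of a gene's tested probe sets the brightest on average, its main probe set, stood for it. Of the 51 genes, 49 then lay among the brightest 10% of tested probe sets. Relative to the shift, 47 of 51 genes were higher in the knockout, against 79.5% of the brightest 10%; over all tested probe sets the shift is the median by construction. The median relative change was 0.11, a ratio of 1.08, beside 0.090 for the brightest 10%. It ranged from -0.17 for Cycs to 0.31 for Cox5b.

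No subunit passed the threshold: 0 of 101 probe sets had a limma adjusted p under 0.05, against 0.00425% of all tested, and the smallest adjusted p was 0.382. At an unadjusted limma p under 0.05, 12 of 51 genes (23.5%) were higher and 0 were lower. Over all tested probe sets 11.9% were higher and 1.13% lower, and 19.0% of the brightest 10% were higher. On the deposited scaling, where the shift was 0.0079, 9 of 51 genes (17.6%) were higher and 0 lower, against 4.31% and 3.98% of all tested and 13.2% of the brightest 10% higher. After quantile normalization 0 genes were higher and 1, Uqcrh, was lower, against 3.69% and 2.81%, with 3.36% of the brightest 10% higher. By the methods' t-test at an unadjusted p under 0.05 and a fold of at least 1.2, 13 of 101 probe sets were higher and 1 lower, against 8.35% and 0.922% of all tested. The 1 lower set was the dimmest of Ndufs8, which passed the filter on low values only through wild type. In the deposited signals 22 of 51 genes (43.1%) were higher on all 3 knockout arrays than on any wild type array and 0 were lower. This share was 7.85% higher and 6.62% lower over all tested probe sets, and 22.8% higher and 0.637% lower in the brightest 10%.

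The direction of the change followed signal in all tested probe sets. With tested probe sets cut into 20 bins of mean signal, the median relative change was -0.15 in the bin from the 5th to the 10th percentile and 0.11 in the bin above the 95th percentile. The brightest bin held 43 of the 51 genes, with a median of 0.11, and 25 of these 43 lay above the median of the bin. Over all bins, 31 of 51 genes lay above the median of their own bin, also after quantile normalization. Quantile normalization, which makes the distribution of signals equal on all arrays, gave the brightest bin a median of -0.015, and the median of the 51 genes became 0.0033 with 27 of 51 above 0. The position of the subunits on the knockout side was thus shared with other bright probe sets, and it depended on the scaling.

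**Figure D1:**
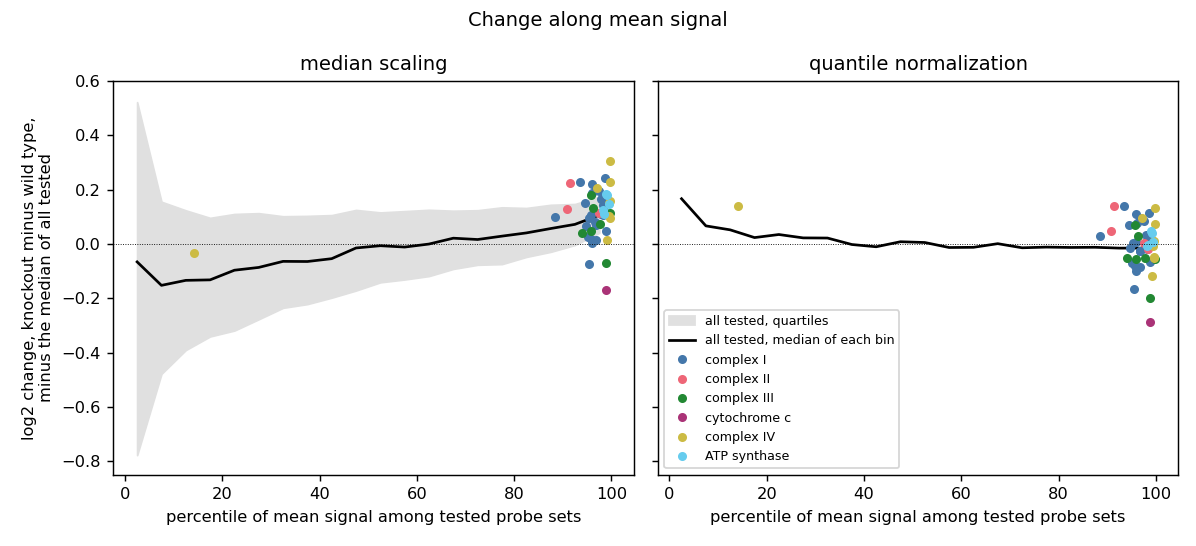
The log2 change (knockout minus wild type, minus the median of all tested probe sets) is plotted against the percentile of mean signal, after median scaling (left) and quantile normalization (right). The black line is the median of all tested probe sets in each of 20 bins, the grey band spans their quartiles (left only), and points are the 51 subunit genes by complex. On the left the line climbs to 0.11 in the brightest bin, where 43 of the genes lie around it, and on the right both line and genes lie about 0.

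Wild type replicate 3 held the lowest signal of 38 of the 51 genes and wild type replicate 2 that of 11. Over all tested probe sets wild type replicate 3 was lowest in 28.5% and replicate 2 in 17.9%, and in the brightest 10% these shares were 60.3% and 22.4%. Knockout replicate 3 held the highest signal of 23 genes, against 16.7% of all tested and 33.9% of the brightest 10%. After median scaling and centring of each gene, the median level of the 51 genes was -0.0042, -0.048 and -0.14 on the wild type arrays in order of replicate number, and 0.038, 0.046 and 0.078 on the knockout arrays. The groups did not overlap, and wild type replicate 1 lay closest to the knockout arrays. The brightest 10% of tested probe sets had the same order, with 0.023, -0.043 and -0.14 in wild type and 0.031, 0.035 and 0.051 in the knockout. After quantile normalization the medians of the 51 genes ran from -0.035 to 0.034 in wild type and from -0.016 to 0.0037 in the knockout, and overlapped.

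The number of probe sets that passed a test changed when 1 array was left out. Leaving out an array also changed the shift, which the p-values include. The shift was 0.23 with all arrays, 0.33 without wild type replicate 1 and 0.12 without wild type replicate 3. Fewer arrays remained as well, and the part of either in these counts was not tested. At an unadjusted p under 0.05, 20 of 101 probe sets were higher and 1 lower with all arrays, against 11.9% and 1.13% of all tested. The 1 lower set was the dimmest of Ndufs8, which passed the filter on low values only through wild type. Without wild type replicate 1 the number higher was 75 of 101, while 34.1% of all tested probe sets were then higher. Leaving out wild type replicate 2 gave 3, where 6.34% of all tested were higher, and leaving out wild type replicate 3 gave 22, against 11.0%. Leaving out knockout replicate 1, 2 or 3 gave 2, 3 and 0, against 4.75%, 8.24% and 4.07%. The share of subunits was thus above that of all tested probe sets without wild type replicate 1 or 3 and below it in the other 4 cases. At an adjusted p under 0.05 the 1 setting of these 6 with any subunit was that without wild type replicate 1. It gave 6 of 101 probe sets (5.94%), against 2.88% of all tested, of Ndufb9, Ndufs1, Ndufs8, Sdhc and, with 2 probe sets, Ndufv1, at adjusted p of 0.0479 to 0.0498. Without wild type replicate 3 the median relative change of the 51 genes was 0.070, and 42 of 51 were above the shift. For 36 of the 51 genes the relative change itself moved by over 1.5 times, or changed sign, when some single array was left out, so the order of genes within a complex is not firm.

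**Figure D2:**
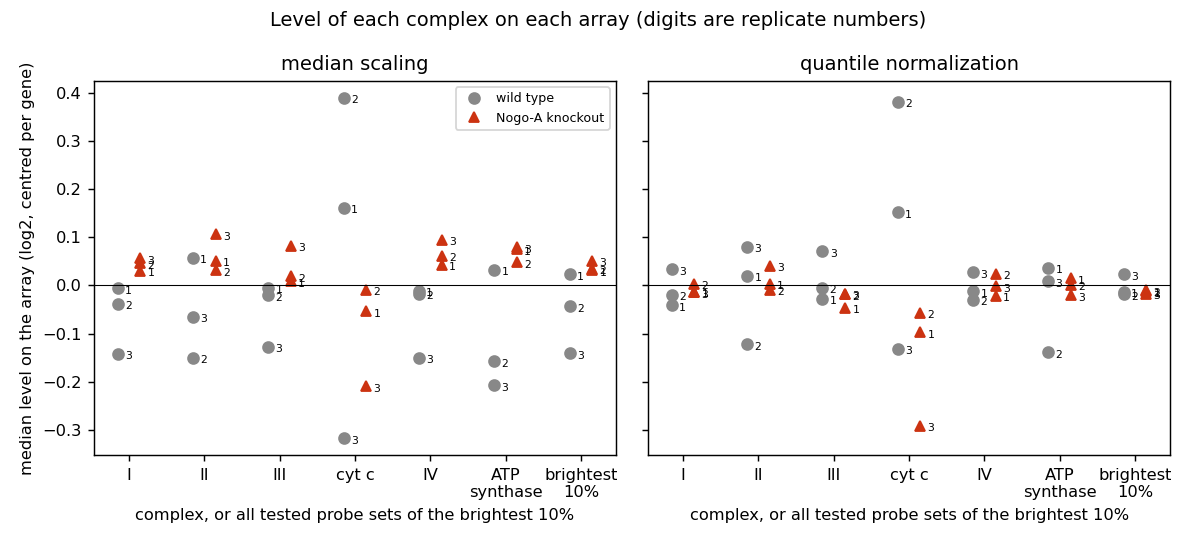
Each point is the median level of a complex on 1 array (log2, each gene centred on its mean over the 6 arrays), for wild type (grey circles) and knockout (red triangles), with replicate numbers beside the points. After median scaling (left) wild type replicate 3 is lowest or next to lowest throughout, at -0.14 in complex I and -0.15 in complex IV, and the brightest 10% of all tested probe sets show the same order. After quantile normalization (right) the groups overlap in every complex.

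Complex I takes electrons from NADH. Of its 25 genes, 24 lay above the shift and 6 (24.0%) were higher at an unadjusted limma p under 0.05. Without overlap of the deposited signals, 10 (40.0%) were higher. The corresponding shares were 11.9% and 7.85% of all tested probe sets, and 19.0% and 22.8% of the brightest 10%. The median relative change of complex I was 0.11, and 0.0038 after quantile normalization. The 11 genes of the arm that reaches into the matrix, where NADH is oxidised, had a median of 0.099, and the 13 genes of the membrane arm, which pumps protons, had 0.11. Ndufa4, now assigned to complex IV, was counted in neither arm.

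Ndufv1, the subunit that binds NADH and its flavin, had signals of 5997, 5038 and 5715 in wild type and 6518, 6976 and 6123 in the knockout. All knockout values lay above the wild type values, with a mean of 6539 ± 427 (SD, n = 3) against 5584 ± 493 (n = 3). The relative change was 0.22 (SE 0.19, limma adjusted p = 0.382), or 0.14 without wild type replicate 2. Ndufs1, the largest iron-sulfur subunit, had 4241, 3263 and 3997 in wild type and 4544, 4583 and 4326 in the knockout. The lowest value came from wild type replicate 2, the groups did not overlap, and the relative change was 0.23 (SE 0.19, limma adjusted p = 0.382), or 0.11 without that array.

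Ndufa3, an accessory subunit of the membrane arm, had 11531, 10897 and 11027 in wild type and 12005, 13417 and 14442 in the knockout. Its knockout values were higher without overlap and more spread. Its relative change of 0.24 was the highest of the main probe sets in the complex with all arrays (SE 0.19, limma adjusted p = 0.382). Ndufs1 was highest without wild type replicate 1 or 3 (0.30 and 0.27), and without knockout replicate 3 Ndufv1 was (0.26). The name of this probe set ends in x_at, so its probes can also match other transcripts. A further bright probe set of Ndufa3 had 9016, 8461 and 7915 in wild type and 8486, 8453 and 8261 in the knockout, which overlapped, with a relative change of -0.017. The brighter probe sets of the gene thus lay on opposite sides of the shift. Ndufa2, an accessory subunit of the matrix arm, was the 1 member of the complex below the shift with all arrays. Its signals were 5449, 6786 and 4687 in wild type and 5707, 5399 and 4889 in the knockout, with both extremes in wild type. Its relative change was -0.075 (SE 0.21, limma adjusted p = 0.678), or 0.061 without wild type replicate 2 and -0.19 without wild type replicate 3. After quantile normalization the values of Ndufv1, Ndufs1, Ndufa3 and Ndufa2 were 0.11, 0.14, 0.11 and -0.17.

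**Figure D3:**
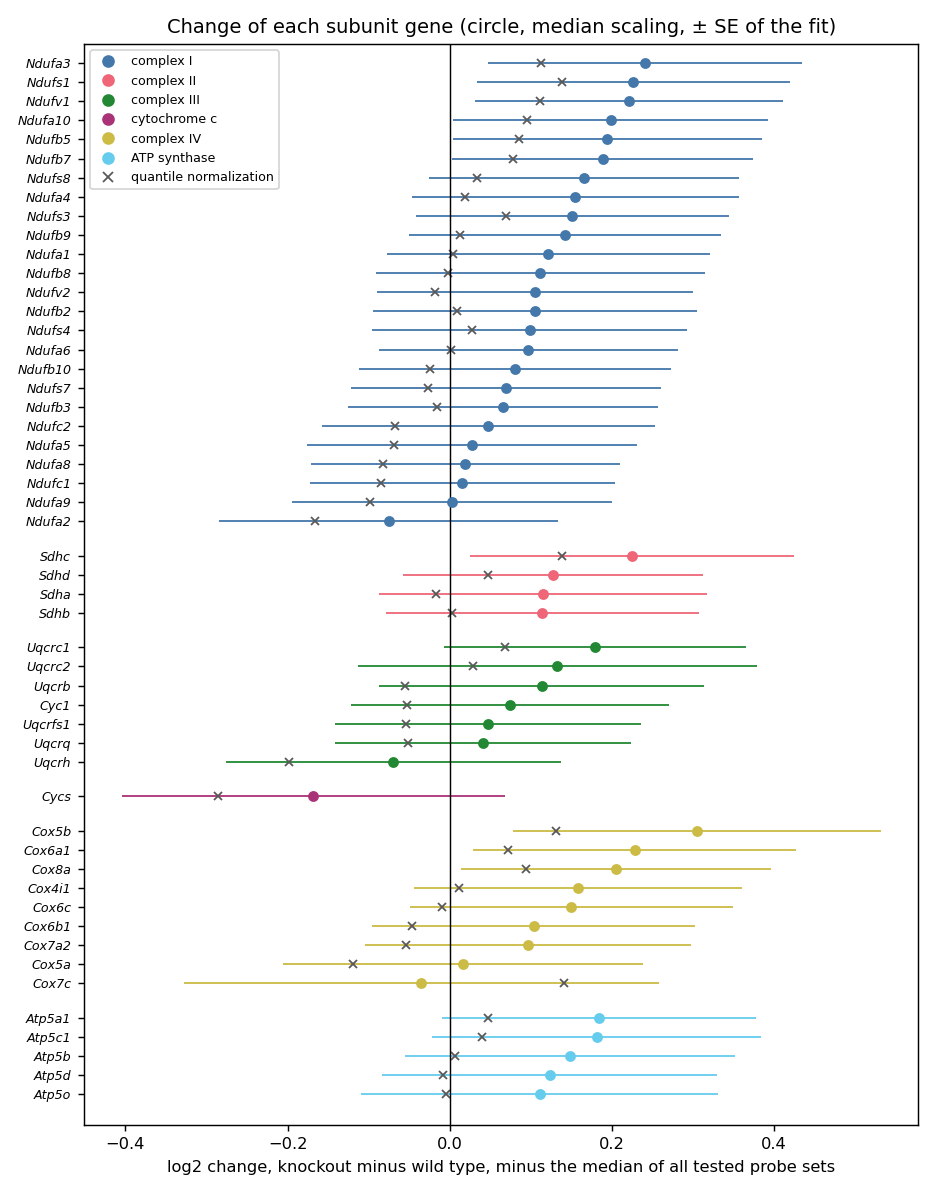
Circles give the relative log2 change of each of the 51 genes after median scaling, with bars of 1 SE of the fit, grouped and coloured by complex, and crosses give the change after quantile normalization. Relative changes of 47 genes lie right of 0, at most 0.31 (Cox5b), and the crosses lie around 0, with 27 of 51 to the right.

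Complex II oxidises succinate and is the only complex whose subunits are all encoded in the nucleus. All 4 of its genes lay above the shift, with a median of 0.12, and 1 of 4 was higher without overlap. Over all tested probe sets 7.85% were higher without overlap, and in the brightest 10% the share was 22.8%. Sdha, the flavoprotein that oxidises succinate, had signals of 11599, 10675 and 9559 in wild type and 11683, 11544 and 11329 in the knockout. Its groups overlapped through wild type replicate 1, and the relative change was 0.11 (SE 0.20, limma adjusted p = 0.410), or -0.017 after quantile normalization and 0.054 without wild type replicate 3. Sdhb, the iron-sulfur subunit, had 8781, 7605 and 7932 in wild type and 8598, 8876 and 8951 in the knockout. Here too wild type replicate 1 lay within the knockout range, and the relative change was 0.11 (SE 0.19, limma adjusted p = 0.403), or 0.064 without wild type replicate 2.

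Sdhc and Sdhd anchor the complex in the membrane and bind ubiquinone. Sdhc had 3416, 2448 and 3224 in wild type and 3703, 3300 and 3584 in the knockout. Wild type replicate 2 was the lowest and wild type replicate 1 lay above 1 knockout value. The relative change of Sdhc, 0.23, was the largest of the complex with all arrays (SE 0.20, limma adjusted p = 0.382), and it was 0.14 after quantile normalization. After median scaling the change of Sdhc was 0.074 without wild type replicate 2, below Sdha at 0.12 and Sdhd at 0.095. Sdhd had 3058, 2833 and 2946 in wild type and 3191, 3065 and 3458 in the knockout. These did not overlap, and the gap between knockout replicate 2 and wild type replicate 1 was small. Its relative change was 0.13 (SE 0.19, limma adjusted p = 0.389), or 0.072 without knockout replicate 3.

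Complex III passes electrons from ubiquinol to cytochrome c. Of its 7 genes, 6 lay above the shift, 1 was higher at an unadjusted limma p under 0.05 and 1 was higher without overlap. The shares for these 2 measures were 11.9% and 7.85% of all tested probe sets, and 19.0% and 22.8% of the brightest 10%. The median of the complex was 0.075, and -0.053 after quantile normalization. Uqcrc1, a core protein facing the matrix, had signals of 5429, 4722 and 6148 in wild type and 6554, 5678 and 6249 in the knockout. Its groups overlapped, since wild type replicate 3 was high for this gene, and the relative change was 0.18 (SE 0.19, limma adjusted p = 0.382), or 0.077 without wild type replicate 2 and 0.28 without wild type replicate 3. Uqcrb, a small subunit near the ubiquinone site, was among the brightest at 24067, 24312 and 21953 in wild type and 24979, 24921 and 26575 in the knockout. It was the complex's only gene without overlap, with a relative change of 0.11 (SE 0.20, limma adjusted p = 0.409), or -0.056 after quantile normalization.

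Cyc1, cytochrome c1, hands the electron to cytochrome c. Its signals were 9341, 8803 and 8178 in wild type and 8765, 9504 and 9587 in the knockout, and the groups overlapped. The relative change of Cyc1 was 0.075 (SE 0.20, limma adjusted p = 0.428), or -0.053 after quantile normalization and 0.037 without wild type replicate 3. Uqcrh, the hinge protein that holds cytochrome c1 and cytochrome c together, had 14734, 13700 and 11763 in wild type and 12950, 12956 and 12447 in the knockout. The knockout values lay inside the wild type range, and the relative change was -0.070 (SE 0.21, limma adjusted p = 0.662), or -0.20 after quantile normalization, and between -0.15 and -0.0043 when 1 array was left out. Its other tested probe set had a relative change of 0.16.

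Cytochrome c, the mobile carrier between complexes III and IV, was represented by Cycs, the lowest of the 51 genes in relative change with all arrays. Its signals were 15078, 17756 and 10672 in wild type and 13061, 13443 and 11655 in the knockout. Wild type replicate 2 held the highest and wild type replicate 3 the lowest value, and the knockout lay between them, with means of 12720 ± 942 (SD, n = 3) against 14502 ± 3577 (n = 3). The relative change was -0.17 (SE 0.24, limma adjusted p = 0.894). It was -0.012 without wild type replicate 2, where Cox7c was the lowest gene at -0.14, and -0.36 without wild type replicate 3. Its 3 other tested probe sets gave -0.089, -0.021 and 0.024. This order, highest on wild type replicate 2 and lowest on wild type replicate 3, was seen in 12 of 101 subunit probe sets (11.9%), against 6.52% of all tested and 13.3% of the brightest 10%. They included 2 probe sets each of Cycs and of Cox5a, a subunit of complex IV.

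Complex IV reduces oxygen to water. Of its 9 genes, 8 lay above the shift and 3 (33.3%) were higher at an unadjusted limma p under 0.05. Without overlap of the deposited signals, 7 (77.8%) were higher. The corresponding shares were 11.9% and 7.85% of all tested probe sets, and 19.0% and 22.8% of the brightest 10%. The median relative change of complex IV was 0.15, and 0.011 after quantile normalization. Cox5b, a peripheral subunit on the matrix side, had signals of 22840, 23407 and 16754 in wild type and 24004, 25632 and 27908 in the knockout. Wild type replicate 3 stood far below the rest, and the mean was 25848 ± 1961 (SD, n = 3) in the knockout against 21001 ± 3688 (n = 3). The relative change of 0.31 was the highest of the main probe sets of all subunits with all arrays (SE 0.23, limma adjusted p = 0.382). Without wild type replicate 3 it was 0.16, below Sdhc (0.29), Ndufs1 (0.27) and, within the complex, Cox6a1 (0.20), and without knockout replicate 3 it was 0.24, below Ndufv1 (0.26). The 3 other tested probe sets of Cox5b gave 0.15 to 0.19. The name of its main set ends in x_at, so the probes can also match other transcripts. Single further probe sets of Ndufb2 (0.38), Atp5d (0.36), Sdhc (0.36), Ndufb9 (0.32) and Ndufs8 (0.32) were higher than the main set of Cox5b.

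Cox6a1, the non-muscle form of subunit 6A, had 23021, 23459 and 21195 in wild type and 26033, 26642 and 26967 in the knockout. All 3 knockout values lay above every wild type value, and the relative change was 0.23 (SE 0.20, limma adjusted p = 0.382). Cox8a, the non-muscle form of subunit 8, had 7243, 7113 and 6773 in wild type and 7725, 7973 and 8815 in the knockout. It did not overlap either and had a relative change of 0.20 (SE 0.19, limma adjusted p = 0.382). For both genes the other tested probe set gave nearly the same change, 0.20 for Cox6a1 and 0.22 for Cox8a. After quantile normalization the values at the main probe sets of Cox5b, Cox6a1 and Cox8a were 0.13, 0.072 and 0.094. Cox7c, a small membrane subunit, was measured only by a dim probe set, with 193.7, 165.9 and 215.6 in wild type and 200.8, 194.1 and 168.0 in the knockout. Those values overlapped fully, and the relative change was -0.035 (SE 0.29, limma adjusted p = 0.709), or 0.14 after quantile normalization. Leaving out 1 array gave -0.14 (wild type replicate 2) to 0.066 (wild type replicate 3).

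ATP synthase turns the proton gradient into ATP. At their main probe sets all 5 of its genes lay above the shift, with a median of 0.15 and a range of 0.11 to 0.18. At an unadjusted limma p under 0.05, 1 was higher, against 11.9% of all tested probe sets and 19.0% of the brightest 10%. Without overlap 3 were higher, against 7.85% and 22.8%. After quantile normalization the median of the 5 genes was 0.0069. Over all 10 tested probe sets of these genes the relative change ran from -0.48 to 0.36, with 3 below the shift. The highest was a second set of Atp5d (SE 0.19, limma adjusted p = 0.382), whose groups overlapped. Atp5a1, the alpha subunit of the catalytic head, had signals of 13906, 12356 and 13264 in wild type and 15158, 14397 and 15570 in the knockout. The groups did not overlap, and the relative change was 0.18 (SE 0.19, limma adjusted p = 0.382). Atp5b, the beta subunit that carries the catalytic sites, had 18045, 18650 and 15464 in wild type and 19469, 19066 and 19405 in the knockout. Its low value came from wild type replicate 3, and the relative change was 0.15 (SE 0.20, limma adjusted p = 0.395), or 0.078 without that array.

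Atp5c1, the gamma subunit that turns inside the head, had 15412, 13968 and 12875 in wild type and 15939, 16207 and 15898 in the knockout. Its knockout values were close together and above every wild type value, with a relative change of 0.18 (SE 0.20, limma adjusted p = 0.385). Atp5o, the stalk protein that confers sensitivity to oligomycin, had 12973, 10067 and 9302 in wild type and 12422, 11297 and 11094 in the knockout. Wild type replicate 1 held its highest value and the groups overlapped, with a relative change of 0.11 (SE 0.22, limma adjusted p = 0.429), or -0.0050 after quantile normalization. Leaving out 1 array gave 0.025 (wild type replicate 3) to 0.25 (wild type replicate 1).

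The complexes differed little among themselves. Medians of the relative change were 0.11, 0.12, 0.075, 0.15 and 0.15 for complexes I, II, III and IV and ATP synthase. Those of complexes I and III were 0.057 and 0.037 without wild type replicate 3, and without knockout replicate 3 that of complex III was 0.044. Leaving out knockout replicate 1 gave complex III 0.12, and leaving out wild type replicate 1 gave it 0.11. On single arrays, after median scaling, knockout levels were above all wild type levels in complexes I, III and IV and in ATP synthase, and the groups overlapped in complex II and cytochrome c. The difference between each pair of complexes was taken on each array, which cancels a shift that both share. Of 15 such pairs, 1 separated the genotypes without overlap: complex IV minus complex III was -0.0061, 0.0028 and -0.023 in wild type and 0.034, 0.043 and 0.013 in the knockout. This difference of 0.039 on the log2 scale could not reach a p under 0.1 by exact permutation, before any adjustment over the 15 pairs.

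Several genes had probe sets that went apart. Of 33 genes with more than 1 tested probe set, 18 had all of them on the same side of the shift, and in 6 the changes differed by more than 0.5. In all 6 the lowest change came from the dimmest tested probe set of the gene, whose wild type mean lay between 166.8 (Ndufa3) and 2597 (Atp5o). The dimmest sets of Ndufs8, Uqcrq and Ndufa3 passed the filter on low values only through wild type. A lower knockout value was thus partly built into the choice of these sets. Probe sets of 1 gene may report on different parts or ends of its transcripts. Names ending in x_at or s_at mark sets whose probes can also match other transcripts, so such sets need not report on the named gene alone.

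Ndufs8, an iron-sulfur subunit of complex I, had 6 tested probe sets with relative changes of -1.39 to 0.32. Its main probe set had signals of 8827, 8395 and 9338 in wild type and 9371, 9204 and 11501 in the knockout, which overlapped, with a relative change of 0.17 (SE 0.19, limma adjusted p = 0.385), or 0.056 without knockout replicate 3. The dimmest had 283.9, 355.9 and 313.4 in wild type and 81.5, 109.7 and 200.1 in the knockout. The dim set did not overlap, ranked 195 of 23525 by limma p (unadjusted 0.00356, adjusted 0.382), and kept a change of -1.21 after quantile normalization. It passed the filter only through wild type, and its lower 2 knockout values lay under their array medians of 144.4 and 149.3. Its direction and rank are therefore not independent of the filter. Another set, at 2550, 2457 and 2716 against 2251, 2093 and 2193, was also lower without overlap, with a relative change of -0.25.

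Uqcrq, a small subunit of complex III, had 4156, 3998 and 4864 in wild type and 3912, 4575 and 5001 in the knockout at its main probe set. Its dim probe set had 151.3, 119.9 and 286.7 in wild type and 67.7, 87.4 and 96.9 in the knockout. That dim set passed the filter only through wild type, and its knockout values all lay under the array medians. The main set overlapped with a relative change of 0.041 (SE 0.18, limma adjusted p = 0.443), or -0.051 after quantile normalization and -0.046 to 0.14 with 1 array left out, while the dim set was lower without overlap at -1.07. Sdhd had a further probe set at 588.3, 1090.9 and 573.3 in wild type and 564.7, 467.1 and 461.8 in the knockout. It too was lower without overlap, at -0.54, opposite to the main probe set of Sdhd.

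The lowest probe sets of Ndufa3, Atp5o and Atp5c1 gave -0.85, -0.48 and -0.36, and each of these overlapped between the groups. Across all 50 tested probe sets other than the main ones, the median relative change was 0.066 with 31 above the shift. The 10 of them below the 50th percentile of mean signal had a median of -0.18 with 3 above, and the 40 at or above it had 0.087 with 28 above. These 10 include the dim sets of Ndufs8, Uqcrq and Ndufa3 that passed the filter only through wild type.

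**Figure D4:**
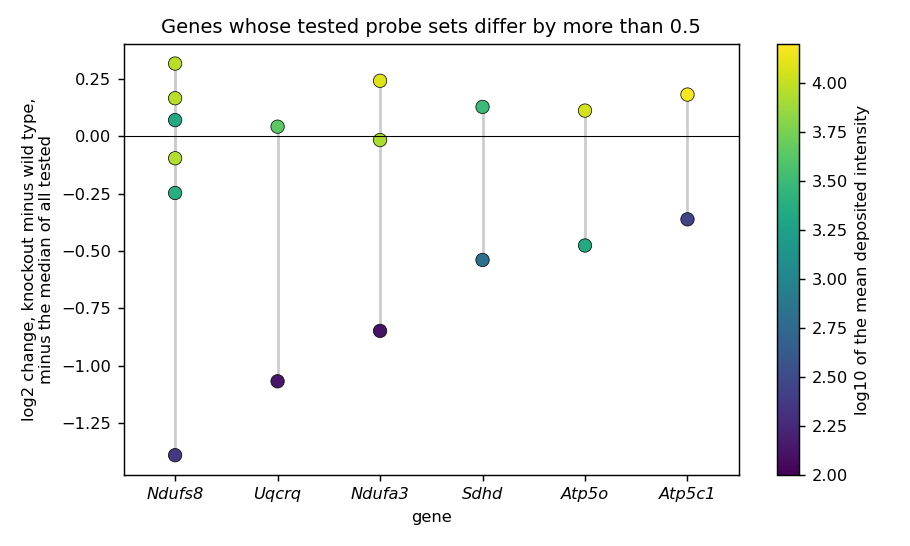
The tested probe sets of the 6 genes whose changes differ by more than 0.5 are plotted by relative log2 change, coloured by the log10 of mean deposited intensity. The dark, dim probe sets lie lowest, at -1.39 for Ndufs8, -1.07 for Uqcrq and -0.85 for Ndufa3, and most of the bright sets lie near or above 0. The dim sets named here passed the filter on low values only through wild type.

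Other genes of the pathway were taken from lists. Of 28 further subunits, 24 were tested, 19 lay above the shift and 3 were higher and 0 lower at an unadjusted limma p under 0.05, with a median of 0.10. The 3 of 24 are 12.5%, near the 11.9% of all tested probe sets. Ndufa13, a complex I subunit, had 11899, 11799 and 8512 in wild type and 11916, 13158 and 13745 in the knockout. It was higher without overlap by a narrow gap, with a relative change of 0.28 (SE 0.22, limma adjusted p = 0.382), or 0.13 without wild type replicate 3. Atp5g1 and Atp5j of ATP synthase, also higher without overlap, had 0.18 and 0.19. Ndufb1-ps was lowest at -0.50, with 469.7, 608.8 and 872.9 in wild type and 539.2, 481.0 and 345.6 in the knockout, which overlapped, and it was -0.25 without wild type replicate 3. ND5, a subunit encoded in mitochondrial DNA and chosen after its values were seen, had 48084, 50206 and 39346 in wild type and 49174, 47988 and 47220 in the knockout, which overlapped. Its relative change was 0.069.

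Assembly factors and regulators, which are dimmer, lay about the shift. Of 45 tested assembly factors, 22 were above it (median -0.0049), 5 were higher and 0 lower at an unadjusted limma p under 0.05, and 4 lay in the brightest 10%. The 5 of 45 are 11.1%, near the 11.9% higher of all tested probe sets. Foxred1, a complex I assembly factor, had 418.0, 405.1 and 477.3 in wild type and 553.1, 514.7 and 577.4 in the knockout. These did not overlap, and the relative change was 0.33 (SE 0.18, limma adjusted p = 0.382), or 0.36 after quantile normalization (limma adjusted p = 0.748). Of 19 regulators of mitochondrial biogenesis, 8 were above the shift (median -0.020) and 2 were higher (10.5%) and 0 lower by the same measure. Gabpb1, a subunit of the ETS factor GABP, had 289.8, 148.2 and 306.1 in wild type and 336.2, 382.3 and 360.5 in the knockout. Wild type replicate 2 was low, no values overlapped, and the relative change was 0.60 (SE 0.27, limma adjusted p = 0.382), or 0.26 without that array. After quantile normalization it was 0.71 with all arrays (limma adjusted p = 0.748). Yy1, the gene for the factor whose motif is named above, had a relative change of 0.16 with overlapping groups, or 0.095 without wild type replicate 1.

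Enzymes of the citrate cycle with other mitochondrial proteins had a median of 0.062 (17 of 26 above the shift), and glycolysis and lactate genes had 0.14 (15 of 19). Each of these 2 lists had 3 genes higher and 0 lower at an unadjusted limma p under 0.05, or 11.5% and 15.8%, against 11.9% higher and 1.13% lower of all tested probe sets. Cs, citrate synthase, had 7921, 7185 and 6774 in wild type and 8774, 8468 and 8062 in the knockout, without overlap, and a relative change of 0.20. Pkm, pyruvate kinase, had 10243, 8393 and 10060 in wild type and 11674, 10371 and 13369 in the knockout, also without overlap, and 0.29, or 0.20 without wild type replicate 2 and 0.19 without knockout replicate 3. Slc2a1, the glucose transporter of the blood-brain barrier, was lower without overlap, with 5210, 6310 and 5108 against 4804, 4734 and 4594, and a relative change of -0.24, or -0.14 without wild type replicate 2. None of the tested genes of these 5 lists passed the threshold of an adjusted p under 0.05, where 0.00425% of all tested probe sets did, and the smallest adjusted p in each was 0.382.

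Markers of neurons and oligodendrocytes also had higher sums in the knockout. Summed signals of 12 of 12 neuronal markers were 118905 to 137210 in wild type, lowest on replicate 3, and 141228 to 146367 in the knockout. Those of 9 of 10 oligodendrocyte markers were 116483 to 121804 in wild type and 133106 to 146743 in the knockout, and neither list overlapped between genotypes. A few bright genes carried these sums, such as Mbp with means of 39242 in wild type and 48421 in the knockout. Single signals were higher without overlap for 6 of 12 neuronal and 4 of 9 oligodendrocyte markers, and none was lower without overlap. Over all tested probe sets 7.85% were higher and 6.62% lower without overlap, and in the brightest 10% these shares were 22.8% and 0.637%. All 11 tested neuronal markers and 7 of 9 oligodendrocyte markers lay in the brightest 10%. Mog, Cldn11 and Ugt8a of the oligodendrocyte list and Slc17a6 of the neuronal list lay below the shift, with relative changes of -0.047, -0.075, -0.010 and -0.058. The median relative change was 0.19 for tested neuronal and 0.23 for oligodendrocyte markers. After quantile normalization these medians were 0.083 and 0.087, so their size depended on the scaling.

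Other sums also separated the genotypes. Markers of Schwann cells (4 of 6), which myelinate the nerve roots, summed to 14051 to 16417 in wild type and 16790 to 23496 in the knockout, with Pmp22 alone at a mean of 13372 and 18390, and 1 of 4 was higher without overlap. Hox genes that mark the level along the cord (9 of 10) summed to 8028 to 8720 in wild type and 8793 to 9571 in the knockout, and 1 of 9, Hoxd8, was higher without overlap. Beside both of these counts, 7.85% of all tested probe sets were higher without overlap. Astrocyte markers (8 of 8) summed to 60813 to 69277 and 68136 to 69545, and microglial markers (8 of 8) to 11019 to 15730 and 10999 to 12304. Of these markers 1, Chat of cholinergic neurons, was below the array median on all 6 arrays, and Eno2 stands in both the neuronal and the glycolysis list. Their part in the values of the subunits was not tested, and in whole tissue fewer cells of a type and less RNA per cell cannot be told apart. Markers of skeletal muscle (12 of 12) summed to 6741 to 13681 in wild type, highest on replicate 3, and 7173 to 25125 in the knockout, highest on replicate 2. The muscle forms of subunits were dim, with Cox7a1 between 175.7 and 311.1 and Cox8b between 42.3 and 160.3 on the 6 arrays. Without wild type replicate 3 and knockout replicate 2, the median of the 51 genes was 0.076 with 39 above the shift. A probe set of Atp5d, the delta subunit of ATP synthase, then passed the threshold (limma adjusted p = 0.0320), beside 0.88% of all tested probe sets.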

How the data were processed

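Messenger RNA was measured on 6 arrays. The deposited intensities are linear, and the authors made them in GCOS 1.4 by its MAS 5.0 method (design text of the series, and the submitters' processing notes). Their later filter and normalization in GeneSpring 7.2 were not part of these values, and no genome build is named for them. RNA of the 6 animals was extracted within a single day, per the labels' protocols.

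Intensities were divided by the median of the array, as in the chip step of the design text, and log2 was taken. In place of present calls, a probe set was tested if it was at or above the 50th percentile on 2 or more of the 3 arrays of either genotype. This left 23525 of 45101 probe sets, without the 64 controls. The genotypes were compared over the whole table with limma 3.58.1 in R 4.3.3 (lmFit and eBayes with a trend), Benjamini-Hochberg adjustment and a threshold of 0.05. The fit was also run on simulated data, on the deposited scaling and without an array-wide shift. The planted changes were larger than those of the subunits at their main probe sets, so the run does not bear on changes of that size. The number of arrays limits the precision. Names are those of the platform annotation, brought up to date by gene identifier with RefSeq (GRCm38.p6) for 34754 of 35890 annotated probe sets. Of all probe sets, 34958 carried 1 symbol and 932 several, while 9160 besides the controls are unnamed here.

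The genes, lists and tests were chosen with earlier results of these data known. The rule for named genes took the 3 smallest p and the highest and lowest change in complexes I, III and IV and in ATP synthase, and every gene of complex II and cytochrome c. It also took up to 8 genes whose probe sets differed by over 0.5, and the 3 smallest p and the highest and lowest change of each related list, of which only some are printed. The count of value columns left unused because they match no sample was 0.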

Additional observations from a re-analysis of the deposited data

How the results depend on the processing

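With all arrays the medians of the relative change were 0.11 for all 51 genes and 0.11, 0.12, 0.075, -0.17, 0.15 and 0.15 for complexes I, II and III, cytochrome c, complex IV and ATP synthase. Quantile normalization gave 0.0033, 0.0038, 0.025, -0.053 and, without a move beyond the spread, -0.29 for cytochrome c, then 0.011 and 0.0069. It left 27 of 51 genes above the shift. At an unadjusted p under 0.05 it left 1 probe set higher and 3 lower, against 3.69% and 2.81% of all tested. Higher without overlap were 3 genes, and 22 in the deposited signals, where 7.85% of all tested were. After quantile normalization that share of all tested was not taken. With no filter, which changes the shift itself, the medians were 0.22 for all genes, 0.21 for complex I, 0.22 for complex II, 0.18 for complex III, 0.25 for complex IV and 0.25 for ATP synthase. That setting gave 12 of 112 probe sets higher and 2 lower, against 7.33% and 3.1% of all tested. The deposited scaling gave 4 lower (3.98% of all tested), the filter at the 25th percentile 2 (2.26%) and that at the 75th percentile 0 (0.368%). The 4 on the deposited scaling included the dim sets of Ndufs8 and Uqcrq, which passed the filter on low values only through wild type. Without the trend 9 of 101 were higher and 2 lower, against 8.97% and 1.78% of all tested, and by the methods' t-test with a fold of at least 1.2, 13 were higher and 1 lower (8.35% and 0.922%), with 0 after adjustment. Leaving out 1 array in turn gave 0 to 75 higher, 1 to 4 lower and 0 to 6 past the adjusted threshold, where the 6 came without wild type replicate 1. Of all tested, 4.07% to 34.1% were higher in these settings, 0.638% to 2.12% lower and 0.00425% to 2.88% past the adjusted threshold. The medians then ran from 0.070 to 0.15 for all genes and from 0.057 to 0.13, 0.084 to 0.17, 0.037 to 0.12, -0.36 to -0.012, 0.11 to 0.18 and 0.11 to 0.22 for the complexes in the order above.

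Same-numbered arrays had correlations of -0.035, 0.074 and 0.11, and those of arrays with different numbers ran from -0.12 to 0.080. So few arrays cannot decide whether the numbers pair the animals, and the main fit used no pairing. With the replicate block 6 of 101 probe sets were higher, against 20, while 13.7% of all tested were higher, and 0 passed the adjusted threshold, which 215 of all tested (0.914%) then passed, against 1 without the block. The 3 settings that follow were added after the data were seen. The deposited scaling without wild type replicate 3 gave 8 lower (5.17% of all tested). Leaving out wild type replicate 3 and knockout replicate 2, the arrays with the most muscle signal, gave 3 lower (2.36% of all tested) and 1 past the threshold (0.88%). Quantile normalization without wild type replicate 3 gave 9 higher and 12 lower (6.38% and 5.22% of all tested), 29 of 51 genes above the shift, and medians of 0.022 (all), 0.0056 (complex I), -0.033 (complex III), 0.042 (complex IV) and 0.039 (ATP synthase).

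Of 406 values of named genes under other settings, 22 changed sign, 3 passed the threshold only there (Ndufs1, Ndufv1 and Sdhc, without wild type replicate 1) and 381 kept sign and call. Under quantile normalization, with all arrays and without wild type replicate 3, these were Sdha (-0.017, -0.013), Uqcrb (-0.056, -0.0086), Cyc1 (-0.053, -0.041), Atp5o (-0.0050, -0.023) and Cox7c (0.14, 0.17), and with all arrays Uqcrq (-0.051). With no filter they were Ndufa2 (0.026), Uqcrh (0.031) and Cox7c (0.066). Cox7c also changed with the filter at the 25th percentile (0.012), on the deposited scaling without wild type replicate 3 (0.066) and without both muscle arrays (0.040). Leaving out 1 array moved Ndufa2 from -0.19 to 0.061, Cox7c from -0.14 to 0.066 and Uqcrq from -0.046 to 0.14. The cause of these changes was not tested. Dim probe sets such as that of Cox7c limit what can be said of a gene.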
